A study of Saccharomyces cerevisiae with 4 samples.

Results

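The 33 genes described here encode factors that make ribosomes in budding yeast: 30 nucleolar processing and assembly factors and 3 subunits of RNA polymerase I (RPA190, RPA135 and RPA43). They were listed by name and locus tag, with earlier results of these data known. All 33 were found among the 7127 features of the count table. RNA came from Saccharomyces cerevisiae BY4742, a haploid laboratory strain of genotype MATα his3Δ1 leu2Δ0 lys2Δ0 ura3Δ0, which both groups share. Cultures in exponential growth in YPD, a rich glucose medium, were given 5 mM tauroursodeoxycholic acid (TUDCA, a bile acid joined to taurine that is used as a chemical chaperone) for 2 h, or were left without it (Ctrl). There were 2 TUDCA libraries and 2 Ctrl libraries, so every group mean is over n = 2 and every ± is an SD. Whether the 2 libraries of a group came from different cultures is not given by the labels. The p-values therefore describe the spread between libraries, which may be technical.

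A ribosome begins as a long precursor RNA that RNA polymerase I copies from the ribosomal DNA in the nucleolus. Small nucleolar ribonucleoproteins (snoRNPs) modify it, the small subunit processome folds and cuts it, and RNA helicases, GTPases and assembly factors build the large subunit before both subunits leave for the cytoplasm. In yeast the genes for these factors are known as the ribosome biogenesis regulon: they are expressed strongly in rich medium and are repressed together when growth slows. Their promoters are known for 2 short elements, PAC and RRPE. In yeast the repressors Tod6 and Dot6 bind PAC and Stb3 binds RRPE.

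Both elements were common in the promoters of these genes. PAC was searched as GATGAG and RRPE as AAAAATTT, on both strands, in the 300 bases before the start codon, read from the RefSeq R64 genome at the coordinates of the count table. PAC was found before 31 of the 33 genes (93.9%), against 1145 of 5988 nuclear protein-coding genes (19.1%). RRPE was found before 31 of 33 (93.9%), against 908 of 5988 (15.2%). Both were present before 30 of 33 (90.9%), against 336 of 5988 (5.61%). The exceptions were UTP22, which had neither, UTP4, which had RRPE without PAC, and MAK5, which had PAC without RRPE. PAC began 93 to 281 bases before the start codon (median 121), and RRPE 34 to 295 bases before it (median 144.5). A run of AAAAATTTTT holds RRPE on both strands in overlap and was counted as 2 matches. A match describes the letters in this window and not a binding site.

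**Figure D1:**
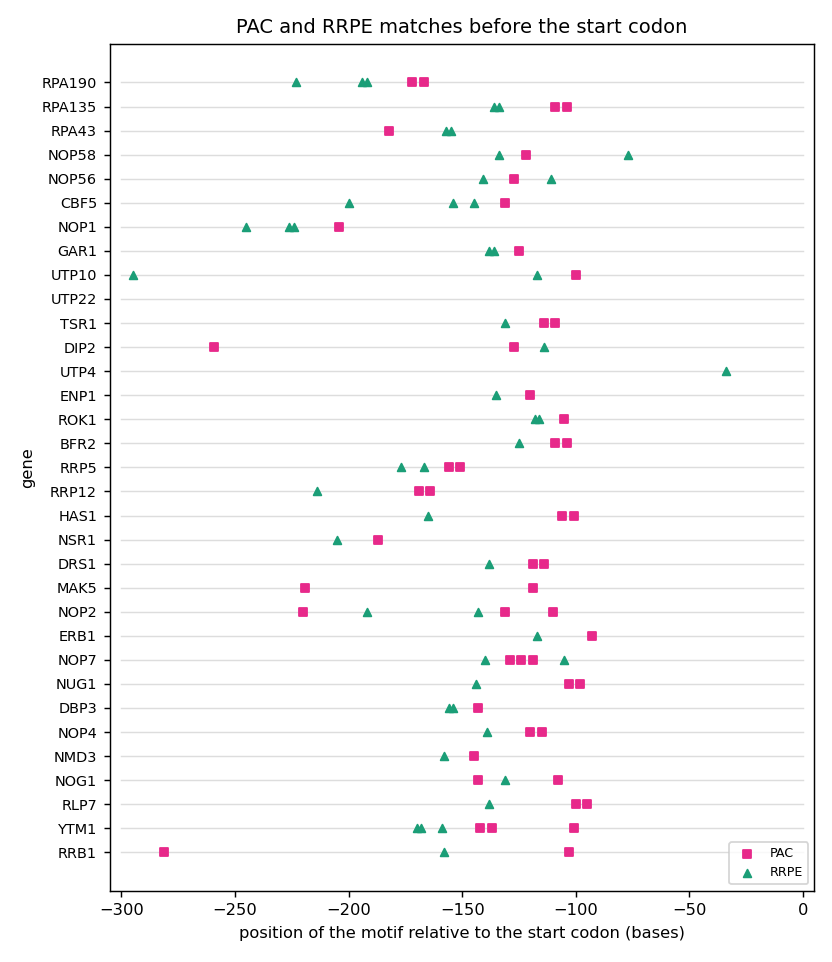
Position of each PAC match (squares) and RRPE match (triangles) in the 300 bases before the start codon of each gene, in bases from the start codon. The matches gather at medians of 121 (PAC) and 144.5 (RRPE) bases before the start codon, and the row of UTP22 is empty.

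The windows of 5 genes are shown, for their p-values or for a shared intergenic region. NSR1, RRB1 and GAR1 had the smallest unadjusted p-values of the 33. RPA190 and RPA43 are divergent neighbours whose coding regions lie 804 bases apart. Each window is written 5′ to 3′ on the strand of its gene (RefSeq, R64), with PAC and RRPE matches in capitals. They lie at chrVII:807657-807956, minus strand (NSR1), chrXIII:534699-534998, minus strand (RRB1), chrVIII:283299-283598, minus strand (GAR1), chrXV:960687-960986, plus strand (RPA190) and chrXV:960183-960482, minus strand (RPA43).
NSR1: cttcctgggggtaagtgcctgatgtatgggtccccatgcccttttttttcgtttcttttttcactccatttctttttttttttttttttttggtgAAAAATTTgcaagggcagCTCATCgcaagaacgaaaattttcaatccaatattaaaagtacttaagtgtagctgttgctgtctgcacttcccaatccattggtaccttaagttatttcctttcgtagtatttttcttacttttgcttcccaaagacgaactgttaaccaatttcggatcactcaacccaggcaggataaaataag
RRB1: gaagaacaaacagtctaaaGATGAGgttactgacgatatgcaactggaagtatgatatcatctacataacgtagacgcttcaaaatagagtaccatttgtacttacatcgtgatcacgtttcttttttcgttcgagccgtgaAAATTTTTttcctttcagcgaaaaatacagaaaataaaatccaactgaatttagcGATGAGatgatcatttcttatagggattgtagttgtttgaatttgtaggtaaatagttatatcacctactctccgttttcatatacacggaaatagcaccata
GAR1: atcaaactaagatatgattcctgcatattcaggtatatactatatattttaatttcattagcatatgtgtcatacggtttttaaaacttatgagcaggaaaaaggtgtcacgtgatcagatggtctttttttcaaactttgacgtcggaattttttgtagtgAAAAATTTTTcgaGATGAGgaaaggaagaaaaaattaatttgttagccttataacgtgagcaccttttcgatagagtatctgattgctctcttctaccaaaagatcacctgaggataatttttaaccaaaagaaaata
RPA190: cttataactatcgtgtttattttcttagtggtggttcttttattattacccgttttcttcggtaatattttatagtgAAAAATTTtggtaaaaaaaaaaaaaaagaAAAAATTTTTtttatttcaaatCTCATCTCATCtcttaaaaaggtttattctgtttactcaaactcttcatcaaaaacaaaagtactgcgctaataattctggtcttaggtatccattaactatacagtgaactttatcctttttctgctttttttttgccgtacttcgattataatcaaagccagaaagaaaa
RPA43: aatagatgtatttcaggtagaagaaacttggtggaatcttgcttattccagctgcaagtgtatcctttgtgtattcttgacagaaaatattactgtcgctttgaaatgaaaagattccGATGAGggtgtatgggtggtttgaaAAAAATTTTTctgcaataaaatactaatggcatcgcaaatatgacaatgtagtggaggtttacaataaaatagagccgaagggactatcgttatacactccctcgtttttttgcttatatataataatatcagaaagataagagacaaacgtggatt

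None of the 33 genes passed the test of TUDCA against Ctrl. With p-values from edgeR's quasi-likelihood F test, adjusted by Benjamini-Hochberg over the 6420 genes tested, 0 of 33 were called at 0.05, where 0.0935% of all genes were called, and the smallest adjusted p among the 33 was 0.544. DESeq2 and limma-voom also called 0 of 33, where they called 0.895% and 0.0935% of all genes. An unadjusted p under 0.05 was reached by 3 of 33 (NSR1, GAR1 and RRB1, all with fitted values below 0), where 8.32% of all genes reached it. The log2 fold changes of the 33 ran from -0.50 (NSR1) to 0.17 (RPA190), with a median of -0.085, against a median of -0.0037 over all genes tested. The median of the 33 was 0.0013 without TUDCA replicate 1, -0.16 without TUDCA replicate 2 and -0.048 without Ctrl replicate 2. The 95% interval reached 0.21 on the log2 scale to either side of the fitted value at the median gene. Without Ctrl replicate 1, where the lone Ctrl library is assumed to vary like the TUDCA pair, edgeR called 8 of the 33 lower (NSR1, RRB1, GAR1, YTM1, NMD3, NOG1, RLP7 and RPA43), where 13.4% of all genes were called lower.

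For 9 of the 33 genes each TUDCA library was lower than each Ctrl library, where 23.9% of all genes showed this. Those 9 were NSR1, RRB1, GAR1, YTM1, RLP7, BFR2, ROK1, NOP4 and ENP1. For 1 gene, RPA190, each TUDCA library was higher than each Ctrl library, where 23.7% of all genes showed this. The groups overlapped for the other 23. In RNA from a whole culture, fewer cells that carry an mRNA and less of it per cell cannot be told apart.

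**Figure D2:**
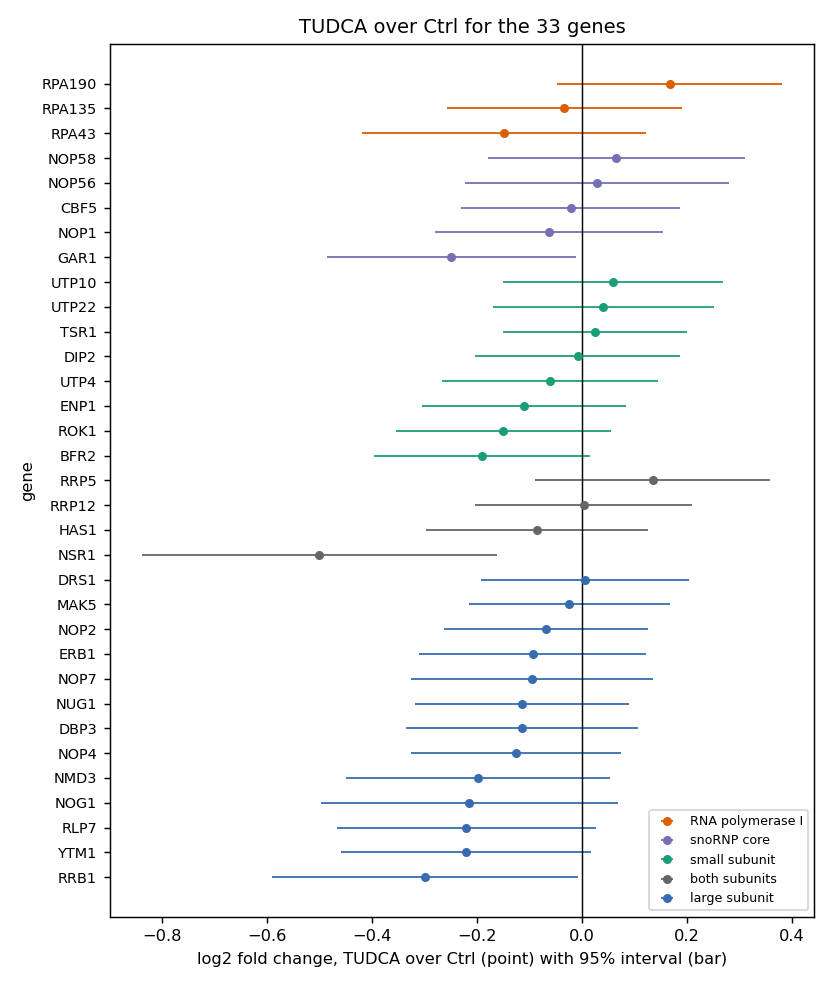
Log2 fold change of TUDCA over Ctrl for each gene (points, edgeR) with its 95% interval (bars), grouped by role. Intervals of 3 genes, NSR1, RRB1 and GAR1, lie below 0 before adjustment, and 0 of the 33 genes passed after adjustment.

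The gap between the TUDCA libraries was more uniform than the gap between the groups. All 33 genes were higher in TUDCA replicate 2 than in TUDCA replicate 1, where 50.7% of all genes were. The log2 difference had a median of 0.17 and ran from 0.081 (YTM1) to 0.29 (NOG1), against a median of 0.0019 over all genes. Between the Ctrl libraries the genes did not move as a block: 24 of 33 had their higher value in Ctrl replicate 2, where 50.3% of all genes did, with a median of 0.085 and a range from -0.23 (NOP56) to 0.41 (NSR1). The fold change between groups was larger than the gap between the TUDCA libraries for 6 of the 33 genes. That is a smaller share than over all genes tested, at 4022 of 6420. The fold change was larger than both replicate gaps for 2 of the 33, NSR1 and GAR1. This too is a smaller share than over all genes tested, at 1714 of 6420. These counts describe 4 libraries and carry no test.

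**Figure D3:**
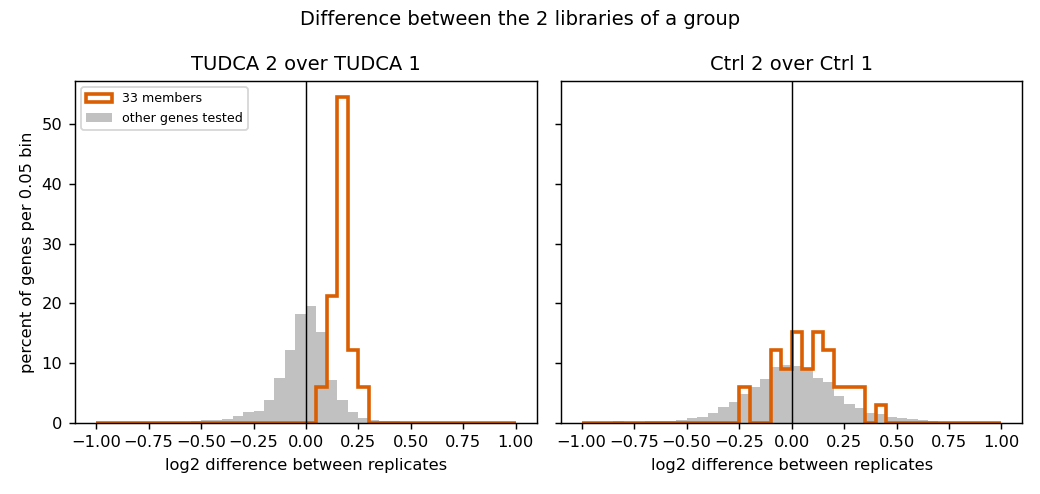
Share of genes at each log2 difference between the 2 libraries of a group, for the 33 genes (line) and the other genes tested (grey), drawn from -1 to 1. In TUDCA all 33 genes lie above 0 around a median of 0.17, while in Ctrl they spread from -0.23 to 0.41.

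The direction differed with the pair of libraries compared for many of these genes. In TUDCA replicate 1, 32 of the 33 genes were below their level in Ctrl replicate 1 (median log2 difference -0.12) and 29 below Ctrl replicate 2 (median -0.21). Of all genes tested, 49.8% were below Ctrl replicate 1 and 50.0% below Ctrl replicate 2. In TUDCA replicate 2, 9 of the 33 were below Ctrl replicate 1 (median 0.040) and 19 below Ctrl replicate 2 (median -0.024). Of all genes tested, 49.8% and 52.2% were, in the same order. The 4 comparisons share libraries and are given side by side only. Summed over the 33 genes, the level was 3609 and 4071 CPM (counts scaled to a common library total, with TMM factors, here and below) in TUDCA, against 3946 and 4119 CPM in Ctrl. The TUDCA sums bracket the sum of Ctrl replicate 1. As a share of all counts, the 33 genes held 0.368% and 0.412% in TUDCA and 0.394% and 0.400% in Ctrl.

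**Figure D4:**
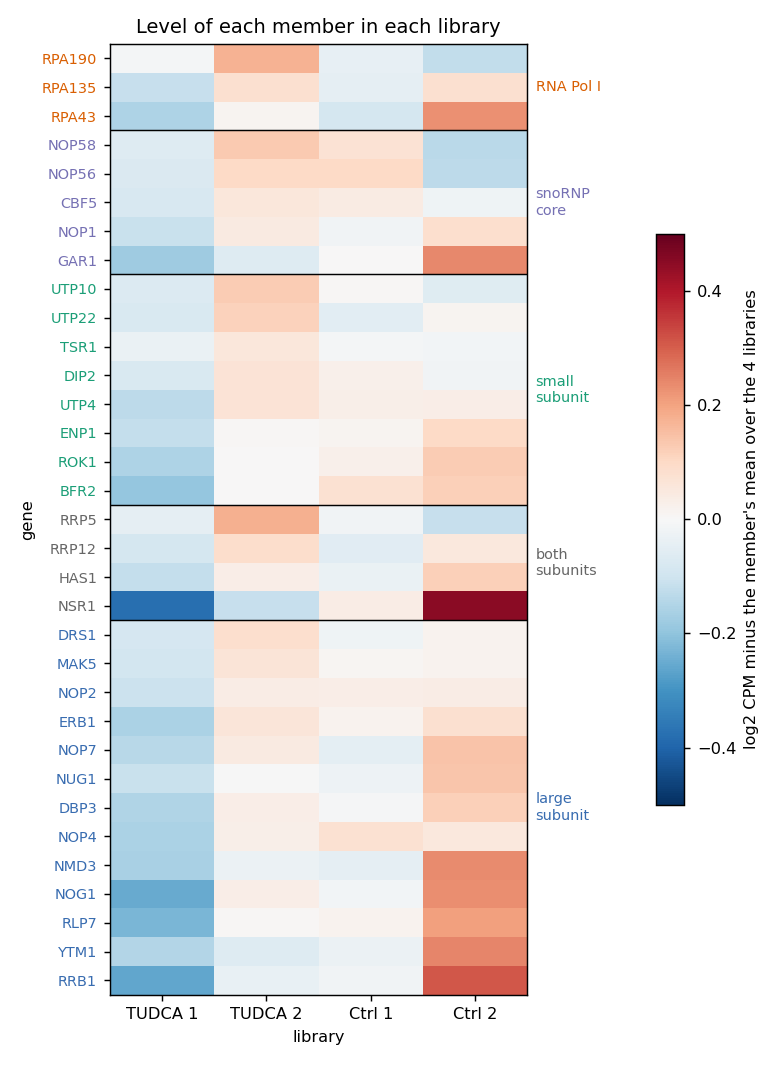
Level of each gene in each library as log2 CPM minus its own mean over the 4 libraries (colour), grouped by role. The column of TUDCA replicate 1 is low for nearly every gene, and Ctrl replicate 2 is high for NSR1, RRB1 and RPA43 but low for NOP56 and NOP58.

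Library depth was 74963319 and 85380303 counts in TUDCA and 74080860 and 97133389 in Ctrl. Cytosolic ribosomal protein genes held 9.75% and 10.3% of the counts in TUDCA and 10.4% and 13.3% in Ctrl, so Ctrl replicate 2 stood apart. LEU2 and URA3, deleted in the strain, had 0 counts in every library and LYS2 at most 2. The 33 genes had at least 3092 counts each in every library, so counting error was small beside the larger gaps described here. That does not hold for gaps near 0, such as those between the Ctrl libraries for NOP2 (log2 0.0030) and UTP4 (0.0054).

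RNA polymerase I is represented by mRNAs of its largest subunit RPA190, its second subunit RPA135 and the stalk subunit RPA43. The RPA43 protein contacts the initiation factor Rrn3. The enzyme itself was not measured. RPA190 (YOR341W, chromosome XV, 960987 to 965981) was at 163 and 186 CPM in TUDCA and 160 and 151 CPM in Ctrl. It was the only one of the 33 genes with both TUDCA libraries above both Ctrl libraries, with a log2 fold change of 0.17 (95% interval -0.047 to 0.38, edgeR adjusted p = 0.547). RPA135 (YPR010C, chromosome XVI, 577585 to 581196) was at 153 and 175 CPM in TUDCA and 160 and 174 CPM in Ctrl, and the groups overlapped (log2 fold change -0.033, 95% interval -0.26 to 0.19). RPA43 (YOR340C, chromosome XV, 959202 to 960182) was at 51.3 and 57.8 CPM in TUDCA and 53.8 and 67.0 CPM in Ctrl, and the groups overlapped here too (log2 fold change -0.15, 95% interval -0.42 to 0.12).

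The ratios between the mRNA levels of the subunits differed most in Ctrl replicate 2. Per kilobase of counted sequence, RPA190 was 0.625 and 0.632 times RPA43 in TUDCA, against 0.584 and 0.443 times in Ctrl. RPA190 was 0.775 and 0.769 times RPA135 in TUDCA, against 0.722 and 0.626 times in Ctrl. In both ratios the TUDCA libraries lay close together and the value of Ctrl replicate 2 lay farthest from the others. The difference between RPA43 and RPA190 in fold change, though they share an intergenic region, was not tested.

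The snoRNP core genes were among the most abundant of the 33 per length: GAR1, NOP1, NOP56 and CBF5 had the highest mean levels per kilobase, followed by NSR1 and then NOP58. NOP1, the methyltransferase of box C/D particles, and its scaffold partners NOP56 and NOP58 act with guide RNAs that direct methylation of the precursor. NOP1 (YDL014W) was at 267 and 297 CPM in TUDCA and 284 and 305 CPM in Ctrl. NOP56 (YLR197W) was at 267 and 301 CPM in TUDCA and 301 and 257 CPM in Ctrl, and NOP58 (YOR310C) at 194 and 222 CPM in TUDCA and 213 and 185 CPM in Ctrl. The groups overlapped for all 3, with log2 fold changes of -0.062, 0.029 and 0.066. NOP56 and NOP58 had the lowest values of Ctrl replicate 2 over Ctrl replicate 1 (log2 -0.23 and -0.21), while NOP1 was at 0.10. Per kilobase of counted sequence, NOP58 was 0.673 and 0.683 times NOP56 in TUDCA and 0.657 and 0.666 times in Ctrl, so their ratio stayed within a narrow range in all 4 libraries. NOP1 was 1.21 and 1.19 times NOP56 in TUDCA and 1.14 and 1.43 times in Ctrl.

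In the box H/ACA particles, which make pseudouridine, CBF5 is the catalytic subunit and GAR1 a core partner. CBF5 (YLR175W) was at 299 and 328 CPM in TUDCA and 325 and 311 CPM in Ctrl, with a log2 fold change of -0.022 (95% interval -0.23 to 0.19). GAR1 (YHR089C, chromosome VIII, 282681 to 283298) was at 162 and 175 CPM in TUDCA and 184 and 216 CPM in Ctrl, a log2 fold change of -0.25 (SE 0.10, unadjusted p = 0.0417, edgeR adjusted p = 0.544). Both TUDCA libraries were below both Ctrl libraries for GAR1, and not for CBF5. GAR1 is the shortest of the 33 genes (618 bases) and had the highest level per kilobase, with a mean of 298 CPM per kilobase over the 4 libraries.

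The 8 small subunit genes had log2 fold changes from -0.19 (BFR2) to 0.059 (UTP10), with a median of -0.034. BFR2 (YDR299W), a small subunit processome factor, was the most abundant per length, at 70.7 and 80.9 CPM in TUDCA and 85.2 and 87.8 CPM in Ctrl (log2 fold change -0.19, 95% interval -0.40 to 0.015). UTP4 and UTP10, which join the precursor early, were at -0.060 and 0.059. UTP22 was at 0.041 and DIP2 at -0.0082, both subunits of other processome modules. The RNA helicase gene ROK1 was at -0.15, the pre-40S factor gene ENP1 at -0.11 and TSR1, which acts late in maturation, at 0.025.

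Factors that serve both subunits included the gene with the largest difference. NSR1, the yeast relative of nucleolin, binds the precursor and is needed for its processing. NSR1 (YGR159C, chromosome VII, 806412 to 807656) was at 81.0 and 97.2 CPM in TUDCA and 108 and 144 CPM in Ctrl. All 4 libraries differed, both TUDCA libraries were below both Ctrl libraries, and Ctrl replicate 2 was the highest. The fold change was 0.707 (log2 -0.50, SE 0.15, 95% interval -0.84 to -0.16, unadjusted p = 0.00939, edgeR adjusted p = 0.544). Leaving out Ctrl replicate 2 gave a log2 value of -0.28 and leaving out Ctrl replicate 1 gave -0.68, and the gap between the Ctrl libraries was 0.41. A feature on the opposite strand covers 46.9% of NSR1, and reads from that stretch were not assigned to it, so its level rests on 661 counted bases.

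The other 3 genes of that kind showed overlapping groups. RRP5, a large scaffold protein of early processing, was at 104 and 122 CPM in TUDCA and 106 and 99.5 CPM in Ctrl (log2 fold change 0.13, 95% interval -0.089 to 0.36). RRP12, an export and maturation factor, was at 0.0032, and the DEAD-box helicase gene HAS1 at -0.085. Per kilobase, NSR1 was 6.10 and 6.28 times RRP5 in TUDCA, against 7.98 and 11.4 times in Ctrl.

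Large subunit factors had fitted values below 0 in 12 of 13 genes, where 51.0% of all genes did, and 0 of the 13 passed the test. Their median log2 fold change was -0.11, from -0.30 (RRB1) to 0.0060 (DRS1). Fitted values were also below 0 for 41 of 53 further large subunit genes and 38 of 44 further small subunit genes. All 137 cytosolic ribosomal protein genes were below 0, as were 8 of 19 RNA polymerase III genes and 5 of 17 regulators. RRB1 (YMR131C, chromosome XIII, 533163 to 534698), which encodes the dedicated chaperone of ribosomal protein Rpl3, was at 82.5 and 96.3 CPM in TUDCA and 97.4 and 123 CPM in Ctrl. TUDCA replicate 2 and Ctrl replicate 1 were nearly level, and the groups did not overlap (log2 fold change -0.30, SE 0.13, unadjusted p = 0.0455, edgeR adjusted p = 0.544). Leaving out Ctrl replicate 2 put RRB1 at -0.12, and leaving out Ctrl replicate 1 put it at -0.44.

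NOP7, ERB1 and YTM1 form a complex needed to process the 27S precursor. NOP7 (YGR103W) was at 79.8 and 90.6 CPM in TUDCA and 85.0 and 97.0 CPM in Ctrl, and ERB1 (YMR049C) at 77.9 and 90.6 CPM in TUDCA and 87.9 and 91.9 CPM in Ctrl. YTM1 (YOR272W) was at 52.3 and 55.3 CPM in TUDCA and 56.8 and 68.6 CPM in Ctrl. The groups overlapped for NOP7 and ERB1 (log2 fold changes -0.095 and -0.093) and not for YTM1 (log2 fold change -0.22, 95% interval -0.46 to 0.017). Per kilobase, ERB1 was 0.732 and 0.750 times NOP7 in TUDCA and 0.776 and 0.710 times in Ctrl, while YTM1 was 0.861 and 0.803 times NOP7 in TUDCA and 0.878 and 0.929 times in Ctrl.

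The helicase gene DBP3 was the most abundant of the large subunit genes per length, at 156 and 177 CPM in TUDCA and 172 and 188 CPM in Ctrl (log2 fold change -0.11, 95% interval -0.34 to 0.11). DRS1 was at 0.0060 and MAK5 at -0.024. The GTPase genes NOG1 and NUG1 were at -0.21 and -0.11, and NMD3, the export adapter of the large subunit, at -0.20. RLP7, related to ribosomal protein Rpl7, was at -0.22, the RNA-binding factor gene NOP4 at -0.13 and the rRNA methyltransferase gene NOP2 at -0.068.

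The fold changes of the 33 genes varied with gene length. Of the 8 genes of up to 1500 bases, 8 had fitted values below 0 (median log2 fold change -0.18), as did 15 of 19 genes of 1500 to 3000 bases (median -0.093). Of the 6 genes over 3000 bases, 1 did (RPA135), and their median was 0.050. Spearman's rho between fold change and length was 0.64 across the 33 genes and 0.50 across the 6420 genes tested. The gap of Ctrl replicate 2 over Ctrl replicate 1 ran the other way with length (rho -0.51 across the 33 and -0.42 across all). These values are descriptions across genes of the same 4 libraries, and genes are not independent replicates. With a trend on length removed from each library, the median log2 fold change of the 33 was -0.14, 30 of 33 were below 0 and 0 of 33 passed. RPA190 was then at 0.0017, NSR1 at -0.50 and NOP58 highest at 0.038. The part of length in these results was not otherwise tested.

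**Figure D5:**
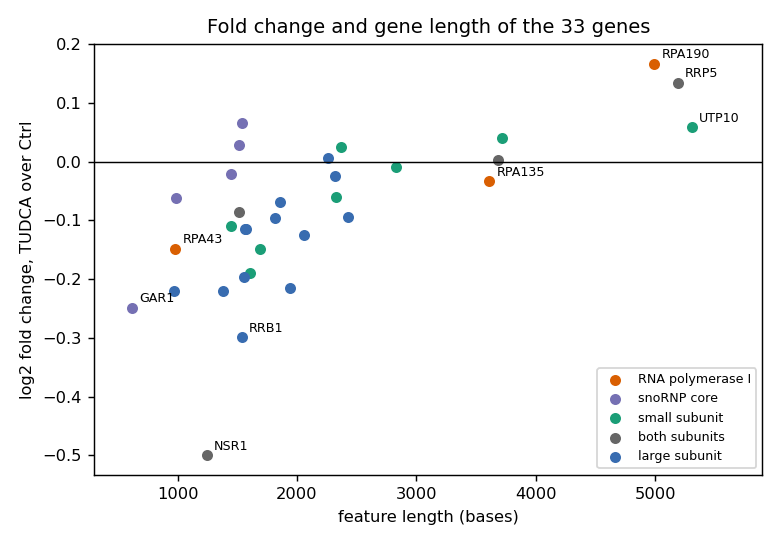
Log2 fold change of TUDCA over Ctrl (vertical axis) against feature length in bases for the 33 genes, coloured by role. The 8 genes of up to 1500 bases lie below 0, and RPA190 and RRP5, near the right edge, lie highest at 0.17 and 0.13.

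Other genes of the same pathway, taken from lists that hold none of the 33, gave no calls either. Beside the counts at an unadjusted edgeR p under 0.05 below, 8.32% of all genes reached that level. Of 44 further small subunit processome genes, edgeR called 0 (10 at an unadjusted p under 0.05, and 0 by DESeq2 and by limma-voom), with a median log2 fold change of -0.11. BUD21 was at -0.24 (57.4 and 60.0 CPM in TUDCA, 67.8 and 70.9 CPM in Ctrl, edgeR adjusted p = 0.544), and BMS1, the GTPase of the processome, at 0.19 (edgeR adjusted p = 0.580). RRP7, the most abundant per length, was at -0.15. The list median was -0.032 without TUDCA replicate 1 and -0.17 without TUDCA replicate 2. Of 53 further large subunit assembly genes, edgeR, DESeq2 and limma-voom called 0 (14 at an unadjusted p under 0.05), with a median of -0.13. CGR1 had the smallest p, at 38.3 and 39.5 CPM in TUDCA against 47.1 and 54.4 CPM in Ctrl (log2 fold change -0.39, edgeR adjusted p = 0.406), and URB1 was at 0.13. TIF6, which keeps the subunits apart until late in maturation, was the most abundant per length and was at -0.092. The list median was -0.070 without TUDCA replicate 1, -0.080 without Ctrl replicate 2 and -0.22 without TUDCA replicate 2. The 12 genes of snoRNP partners and their assembly factors had a median of -0.16 and 0 calls by the same 3 tools (4 at an unadjusted p under 0.05), with SNU13 at -0.36, RVB2 at 0.12 and NOP10, the most abundant per length, at -0.21, and the list median was -0.091 without Ctrl replicate 2.

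The remaining RNA polymerase I subunits and factors, 20 genes that include the subunits shared with other polymerases, had a median log2 fold change of -0.18. The list median was -0.081 without Ctrl replicate 2 and -0.11 without TUDCA replicate 1. Of the 20, 18 had fitted values below 0, where 51.0% of all genes did. The groups were apart with TUDCA lower for 14, where 23.9% of all genes showed this. The same held for 89 of 137 cytosolic ribosomal protein, 29 of 53 large subunit, 19 of 44 small subunit and 8 of 12 snoRNP list genes. It held for 3 of 19 RNA polymerase III genes and 2 of 17 regulators. There the groups were apart with TUDCA higher for 9 and 8, where 23.7% of all genes showed this. An unadjusted p under 0.05 was reached by 4 of the 20, where 8.32% of all genes reached it, and edgeR, DESeq2 and limma-voom called 0 of them. RRN11, a core factor subunit, was at -0.26 (38.0 and 42.5 CPM in TUDCA, 46.8 and 49.6 CPM in Ctrl, edgeR adjusted p = 0.544). RPB10, a short shared subunit, was at -0.21 and RRN6, another core factor subunit, at 0.061. RNA polymerase III genes had a median of 0.022 over 19 genes, with 0 calls by the 3 tools and 0 at an unadjusted p under 0.05. In them RPO31, the largest subunit, was at 0.19, RPC37 at -0.17 and RPC11, the most abundant per length, at -0.011. Leaving out a library put the list median between -0.010 (without TUDCA replicate 2) and 0.057 (without TUDCA replicate 1).

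Of 17 regulators of growth and ribosome synthesis, the 3 tools called 0, with a median of 0.072 (0.038 without Ctrl replicate 2). An unadjusted edgeR p under 0.05 was reached by 2 of the 17, where 8.32% of all genes reached it. TOD6, which binds PAC, was at 20.4 and 21.6 CPM in TUDCA and 23.4 and 30.6 CPM in Ctrl (log2 fold change -0.36, edgeR adjusted p = 0.544). TOR2, a kinase of the TOR complexes, was at 122 and 126 CPM in TUDCA and 111 and 107 CPM in Ctrl (log2 fold change 0.18, edgeR adjusted p = 0.544). BCY1, the regulatory subunit of protein kinase A and the most abundant regulator per length, was at -0.041. Named for their binding or activation of these promoters and not by rank, DOT6 was at -0.044, STB3 at 0.14 and the activator gene SFP1 at 0.013. The mRNA level of a regulator is not a measure of its activity. Cytosolic ribosomal protein genes were set beside the 33 by their replicate gaps: their median log2 difference of TUDCA replicate 2 over TUDCA replicate 1 was 0.089, against 0.17 for the 33. All 137 had their higher Ctrl value in replicate 2, by a median of 0.41, against 0.085 for the 33. That difference was not tested. The median log2 fold change of the 137 was -0.29 (-0.068 without Ctrl replicate 2 and -0.47 without Ctrl replicate 1). There were 0 calls by edgeR and limma-voom and 1 by DESeq2. An unadjusted edgeR p under 0.05 was reached by 20, where 8.32% of all genes reached it. RPS22B had the smallest p (log2 fold change -0.43, edgeR adjusted p = 0.544). RPL41A, which has a near-identical copy that reads may be shared with, was the most abundant per length and was at -0.16.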

How the data were processed

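Stranded libraries were made from poly(A)-selected RNA of integrity above 8, per the labels' protocols. The deposited counts are raw counts per feature. Per the submitters' processing notes, STAR 2.5.4b, featureCounts 1.6.0, DESeq2 1.26.0 and build R64 were used; strand setting, multimapping rule and annotation release are not given in the sources used here. The other deposited values, a signal per feature, have a constant ratio to the counts within each library, so the authors had divided by a size factor; they were not tested. Of 113 features that lie wholly under others on the opposite strand, 112 had 0 counts, against 51 of 5726 covered by no other feature, so reads in overlaps were not assigned. Counting by strand would have kept such reads, so the deposited counts do not appear to be strand-specific, though the libraries were stranded. Another feature overlaps 5 of the 33 genes (NOP56, NOP58, NSR1, HAS1 and NOP4), and levels per kilobase use the bases that no other feature covers.

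The tests used edgeR 4.0.16 in R 4.3.3 (filterByExpr at a minimum count of 10, TMM, quasi-likelihood F test, Benjamini-Hochberg over 6420 genes), after a check on simulated data. Alternatives used DESeq2 1.42.0 and limma 3.58.1. Library deviations in the text are log2 CPM with a prior count of 2. Of 7127 features, 6047 matched the RefSeq gene table. The members and lists were chosen with earlier results of these data known. RPP1, an RNase P gene that the name rule for ribosomal protein genes caught, was taken out. Values per library are given for RNA polymerase I, the most abundant gene of each role, the 3 smallest p, the 3 largest and 3 smallest gaps between the Ctrl libraries, and 2 complexes. The most abundant gene and those with the smallest p in each direction were looked up in each other list, and these are printed. Counts of 0 and intervals cover counting error and library spread only.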

Additional observations from a re-analysis of the deposited data

How the results depend on the processing

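All 33 genes passed the filter, and 0 of them passed under 10 of the 12 alternatives. The exceptions follow. Without Ctrl replicate 1, where the lone Ctrl library is assumed to vary like the TUDCA pair, 8 were lower (NSR1, RRB1, GAR1, YTM1, NMD3, NOG1, RLP7 and RPA43), where 13.4% of all genes were called lower. With the replicate number as a block, 2 were lower (NSR1, edgeR adjusted p = 3.27e-05, and RRB1, 0.0371), where 2.52% of all genes were called lower. Replicates share only a number, the deviations of same-numbered libraries correlated at r = 0.18 across genes, and the block leaves 1 residual degree of freedom. Under the block the calls over all genes were 191 higher and 162 lower, with 45 ribosomal protein, 8 large subunit, 5 small subunit, 1 RNA polymerase I, 1 regulator and 1 snoRNP gene lower.

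Leaving out a library moved the median log2 fold change of the 33 between -0.16 (without TUDCA replicate 2) and 0.0013 (without TUDCA replicate 1). It moved the calls over all genes between 2 and 1139 higher and between 5 and 871 lower, with 24 and 19 without Ctrl replicate 2. In the lists, medians ran from -0.47 to -0.068 (ribosomal proteins), -0.22 to -0.070 (large subunit), -0.17 to -0.032 (small subunit), -0.23 to -0.081 (RNA polymerase I), -0.010 to 0.057 (RNA polymerase III), 0.038 to 0.082 (regulators) and -0.20 to -0.091 (snoRNP). These lists hold 137, 53, 44, 20, 19, 17 and 12 genes in that order. Beside the calls that follow, 13.4% of all genes were called lower and 17.6% higher without Ctrl replicate 1. The spread of the lone Ctrl library is assumed there. Calls of lower genes ran from 0 to 129, 22, 15, 10, 2, 1 and 5 in the same order, and of higher genes from 0 to 0, 2, 2, 0, 8, 5 and 1, with every highest count without Ctrl replicate 1.

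DESeq2 called 30 genes higher and 29 lower, with 1 ribosomal protein gene lower. Upper-quartile scaling called 1 higher and put the RNA polymerase III median at -0.022 and that of regulators at 0.028, against 0.065 and 0.12 with library totals. With the length trend removed, medians were -0.090 (RNA polymerase I), -0.026 (regulators) and -0.096 (snoRNP). The causes were not tested.

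The sign turned for 18 of the 33 genes under at least 1 alternative. With upper-quartile scaling the log2 values were -0.042 for RRP12, -0.039 for DRS1, -0.013 for NOP56, -0.019 for TSR1 and -0.0041 for UTP22. With library totals they were 0.020 for MAK5, 0.021 for CBF5, 0.011 for RPA135 and 0.035 for DIP2. With the length trend removed they were -0.14 for RRP12, -0.034 for RRP5, -0.085 for DRS1, -0.071 for TSR1, -0.11 for UTP10 and -0.10 for UTP22. Leaving out a library gave ranges across 0 of -0.087 to 0.088 (RRP12), -0.080 to 0.087 (DRS1), -0.21 to 0.012 (ERB1), -0.10 to 0.052 (MAK5), -0.14 to 0.0013 (NOP2), -0.19 to 0.0055 (NOP7), -0.091 to 0.045 (CBF5) and -0.14 to 0.013 (NOP1). The ranges were -0.079 to 0.16 (NOP56), -0.034 to 0.18 (NOP58), -0.13 to 0.061 (RPA135), -0.28 to 0.021 (RPA43), -0.082 to 0.062 (DIP2), -0.022 to 0.070 (TSR1), -0.042 to 0.15 (UTP10), -0.058 to 0.13 (UTP22) and -0.16 to 0.035 (UTP4). RPA190 kept a value above 0 (0.0017 with the length trend removed) and NSR1, RRB1 and GAR1 values below 0 under all 12 alternatives. Values below 0 were likewise kept by HAS1, DBP3, NMD3, NOG1, NOP4, NUG1, RLP7, YTM1, BFR2, ENP1 and ROK1. Each group has 2 libraries, and no alternative with fewer counts per library was run.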

Other observations

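Genes outside the 33 whose promoter windows hold both PAC and RRPE were also counted by their gap between the TUDCA libraries. Of 304 such genes that were tested, 241 (79.3%) were higher in TUDCA replicate 2 than in TUDCA replicate 1, with a median log2 difference of 0.084, against 33 of 33 and 0.17 for the genes described above and 50.7% and 0.0019 over all genes. Their median log2 fold change of TUDCA over Ctrl was -0.074, with 0 calls by edgeR. An unadjusted edgeR p under 0.05 was reached by 45 of them, where 8.32% of all genes reached it. This set was formed after the values of the 33 were seen, and its difference from other genes was not tested. Genes of the other lists were not taken out of it. Both elements precede 37 further large subunit genes and 31 further small subunit genes, among others, so the set and those lists share genes. Among the other lists, 52 of 53 large subunit genes and 43 of 44 small subunit genes were higher in TUDCA replicate 2, as were 121 of 137 cytosolic ribosomal protein genes, 16 of 20 further RNA polymerase I genes, 15 of 19 RNA polymerase III genes, 12 of 17 regulators and 6 of 12 genes of snoRNP partners and their assembly.

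PAC and RRPE were counted in the windows of the other lists too. Both were present before 31 of 44 further small subunit genes (70.5%), 37 of 53 further large subunit genes (69.8%), 5 of 12 genes of snoRNP partners and their assembly (41.7%), 7 of 19 RNA polymerase III genes (36.8%), 6 of 20 further RNA polymerase I genes (30.0%) and 1 of 17 regulators (5.88%), and before 1 of 137 cytosolic ribosomal protein genes (0.730%).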
